A study of Mus musculus with 6 samples.

Results

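Hedgehog receptors, co-receptors and release factors are the proteins that let a Hedgehog ligand leave one cell and be bound by another. The genes were chosen by symbol, from a list of 9, and 8 of them were found among the 24444 gene symbols of the deposited table: Gas1, Cdon, Boc, Lrp2, Hhip, Ptch1, Scube1 and Scube2. Disp1, which releases lipid-modified ligand from the producing cell, was not analysed here. All 8 passed the filter on low values, which kept 14249 genes. The libraries are poly(A) RNA of the telencephalon, from which cortex and basal ganglia develop, of C57BL/6J mouse embryos at E12.5. There are 3 libraries labelled wild-type and 3 labelled Arl13b-/-, here called Arl13b-null. The protein made from Arl13b is a GTPase found in primary cilia. The labels do not name the allele, say whether embryos were pooled or tie a library to 1 embryo. A p-value here thus reflects the spread from library to library, part of which may be technical.

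In the absence of ligand, Ptch1 holds the transducer Smo inactive. Ligand binding to Ptch1, together with a co-receptor (Gas1, Cdon or Boc), relieves this block, and Smo then acts at the primary cilium on the Gli transcription factors. Ptch1 and Hhip bind ligand and are also transcribed in response to it, so that they limit the signal, whereas Gas1, Cdon and Boc are known to be reduced by it. Scube proteins carry ligand off the producing cell, and Lrp2 is an endocytic receptor that binds Sonic hedgehog in the forebrain neuroepithelium.

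The Gas1 and Cdon promoters are shown because these genes fell together in the comparison of 4 libraries described below, and the Ptch1 promoter because Ptch1 is the receptor and a Hedgehog target. Each is the 250 bases before the transcription start in RefSeq's table of build GRCm38.p6, 5′ to 3′ on the gene's strand, with CCAAT and GGGCGG, read on both strands, in capitals. The build of the deposited values is another one, mm9, so these positions were not used with the values.
Gas1, chr13:60177536-60177785, minus strand: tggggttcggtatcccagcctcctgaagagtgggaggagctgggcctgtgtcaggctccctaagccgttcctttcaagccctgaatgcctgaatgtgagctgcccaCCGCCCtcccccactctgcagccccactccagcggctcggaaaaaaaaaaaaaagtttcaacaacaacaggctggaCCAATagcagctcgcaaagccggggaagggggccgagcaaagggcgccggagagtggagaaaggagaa
Cdon, chr9:35451826-35452075, plus strand: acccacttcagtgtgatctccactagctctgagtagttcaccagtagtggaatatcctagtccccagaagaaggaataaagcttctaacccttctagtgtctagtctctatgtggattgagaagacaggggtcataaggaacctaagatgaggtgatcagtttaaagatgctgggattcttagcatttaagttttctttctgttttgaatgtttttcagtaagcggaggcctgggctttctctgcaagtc
Ptch1, chr13:63565736-63565985, minus strand: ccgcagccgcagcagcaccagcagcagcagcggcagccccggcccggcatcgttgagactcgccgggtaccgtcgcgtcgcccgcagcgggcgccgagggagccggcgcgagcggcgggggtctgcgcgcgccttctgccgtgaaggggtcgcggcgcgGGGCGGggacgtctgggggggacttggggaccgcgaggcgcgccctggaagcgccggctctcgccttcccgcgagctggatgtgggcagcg

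The 3 windows differ in base composition. The GC content is 58.8% in the Gas1 window, 42.8% in the Cdon window and 78.4% in the Ptch1 window, against a median of 52.4% over 32851 windows of the same length. The Cdon start in the table lies inside the gene rather than at its first annotated base, and its window holds 1 CpG, against 10 for Gas1 and 41 for Ptch1. GACCACCCA, the core sequence bound by Gli proteins, was searched on both strands and is in none of the windows of the 7 genes that have an entry, against 0.225% of all windows. CCAAT is in the windows of Gas1 and Scube1, against 33.8% of all windows. GGGCGG is in 6 of the 7, all but Cdon, against 32.7%. None of the 3 motifs contains another, and a match or its absence describes these letters in this window only.

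The libraries are unequal. Estimated depth was between 27500000 and 51900000 reads. Wild-type 1 and Arl13b-null 2 stand apart from the other 4 libraries. Set against the average of wild-type 2 and 3, 15 radial glia and progenitor genes differed on average by −1.58 on the log2 scale in wild-type 1 and by −4.52 in Arl13b-null 2, but by 0.080 and 0.069 in Arl13b-null 1 and 3. For 12 postmitotic neuron genes the differences were 0.92, 1.73, 0.15 and 0.20 in the same order. Of the markers that define the tissue, 1 of 12 dorsal genes, Neurog1, was listed at 0 in Arl13b-null 2, and 0 of 13 ventral genes were at 0 in any library. However, the ventral genes summed to 1870 normalized counts in Arl13b-null 2, against 17026 to 23527 in the other libraries. The dorsal genes summed to 61483 in Arl13b-null 2, against 22627 to 38817 in the others. A sum is weighted to the most abundant genes. Averaged gene by gene on the log2 scale, Arl13b-null 2 differed from wild-type 2 and 3 by −0.87 for the dorsal and by −2.95 for the ventral genes. Arl13b had between 553 and 661 normalized counts in wild-type and between 492 and 564 in Arl13b-null libraries, so its gene-level value does not check the labels. Xist had between 15101 and 19017 normalized counts in wild-type 1 and Arl13b-null 1 and 3, and the Y-linked gene Ddx3y had 1093 and 1258 in wild-type 2 and 3. Arl13b-null 2 had neither signal, with 244 for Xist and 0 for Ddx3y. Results are given for all 6 libraries and for wild-type 2 and 3 against Arl13b-null 1 and 3, where sex and genotype cannot be told apart. In bulk tissue, fewer cells of a type and less RNA per cell cannot be told apart either.

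The co-receptor genes Gas1 and Cdon were lower in Arl13b-null 1 and 3 than in wild-type 2 and 3, while their partner Boc was not. Gas1, a surface protein anchored by a lipid that binds Sonic hedgehog, had 1585, 5650 and 6271 normalized counts across wild-type 1, 2 and 3, and 2528, 456 and 2642 across Arl13b-null 1, 2 and 3. Wild-type 1 lay below 2 of the Arl13b-null libraries, so the groups of 3 overlap. Cdon, a surface protein of the immunoglobulin superfamily, had 2120, 4651 and 4717 normalized counts across wild-type 1, 2 and 3, and 1722, 302 and 2052 across Arl13b-null 1, 2 and 3. Here every wild-type library was above every Arl13b-null library, although wild-type 1 exceeded Arl13b-null 3 by little. Boc, the closest relative of Cdon, had 1246, 3407 and 3355 normalized counts across wild-type 1, 2 and 3, and 3301, 571 and 4232 across Arl13b-null 1, 2 and 3. The wild-type values of Boc fall among the Arl13b-null values.

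**Figure D1:**
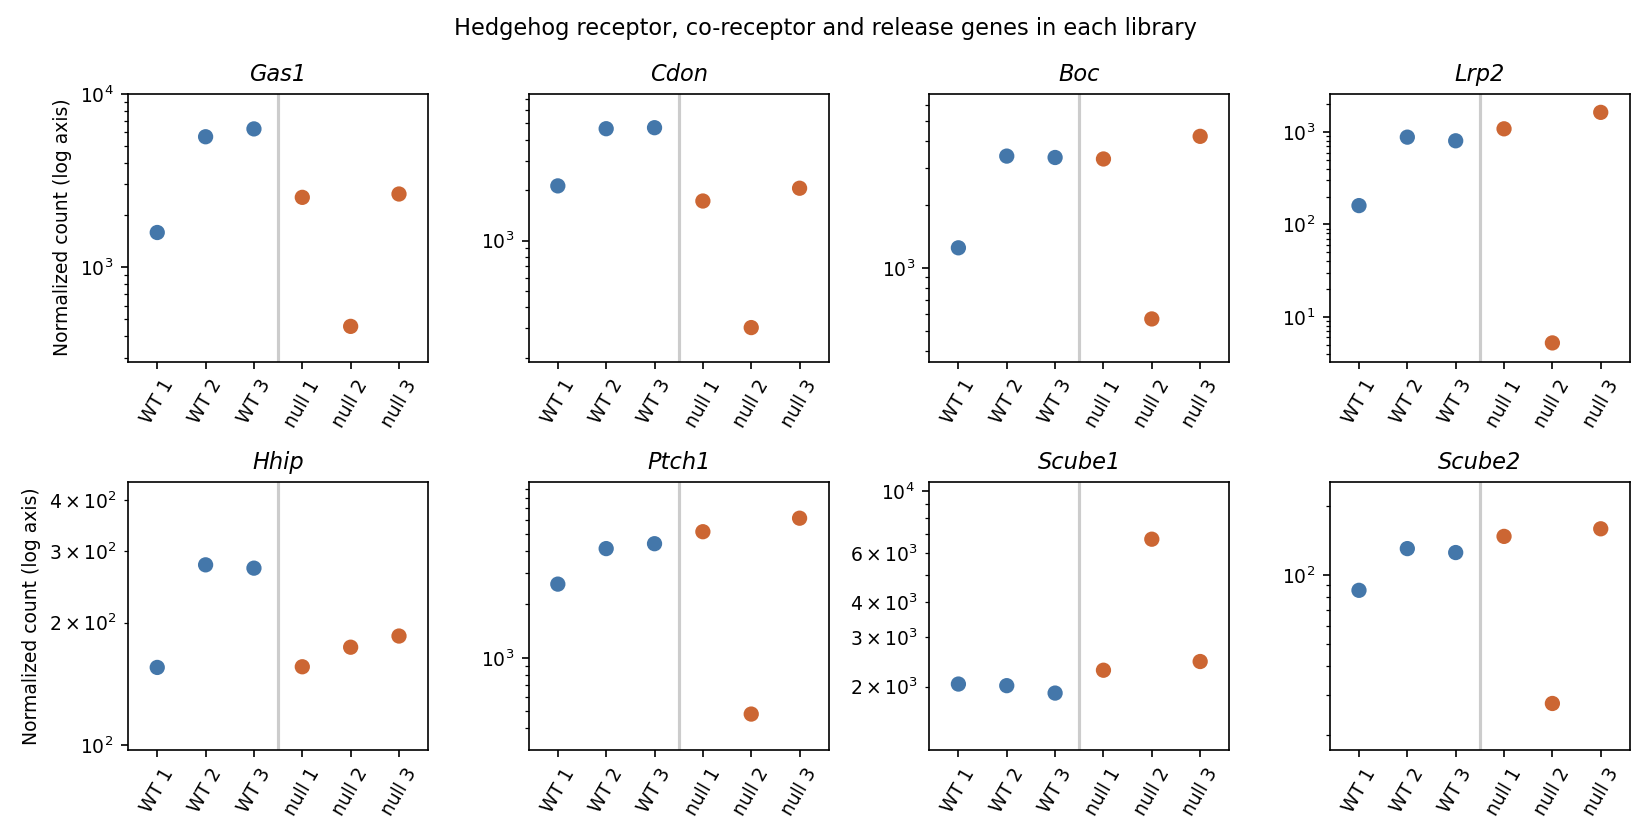
Normalized counts (log axis) of the 8 genes in each library, with wild-type (WT) in blue and Arl13b-null (null) in orange. Gas1 and Cdon are lower in null 1 and 3 than in WT 2 and 3, Boc and Ptch1 are not, and WT 1 and null 2 are low for most genes but not for Scube1.

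Over all 6 libraries no co-receptor passed the test. Gas1 had a variance-stabilised level, on a log2 scale, of 11.93 ± 1.08 in the wild-type and 10.59 ± 1.35 in the Arl13b-null libraries (SD, n = 3 each), a difference of −1.34 ± 0.84 (SE; limma adjusted p = 0.990). For Cdon it was 11.84 ± 0.65 and 10.13 ± 1.39 (SD, n = 3 each), a difference of −1.71 ± 0.75 (SE; limma adjusted p = 0.990, and exact two-sided permutation p = 0.1, the smallest that 3 against 3 can give). Of all genes tested, 85 had a lower difference than Cdon. For Boc the difference was −0.25 ± 0.83 (SE; limma adjusted p = 0.990), and it became 0.61 without Arl13b-null 2. Without that library the Gas1 difference was −0.56 and the Cdon difference −0.91. In limma 0 of the 8 genes passed an adjusted p of 0.05, as did 0% of all genes tested, and 0 of the 8 and 163 of 14249 had an unadjusted p under 0.05. Groups did not overlap for Cdon and Scube1, 2 of the 8, where 8.26% of all genes tested had non-overlapping groups, 3.59% lower and 4.67% higher in Arl13b-null.

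With wild-type 2 and 3 against Arl13b-null 1 and 3, Gas1 and Cdon fell and the other 6 genes did not pass. Gas1 fell by 1.18 ± 0.065 on the log2 scale (SE, 2 libraries per group; limma adjusted p = 0.00734), to 0.434 times the wild-type mean count. Cdon fell by 1.29 ± 0.086 (limma adjusted p = 0.0156), to 0.403 times. Boc differed by 0.14 ± 0.11 (limma adjusted p = 0.629). The 2 calls among 8 genes stand beside 0.253% of all genes called, and both are among the 0.182% called lower, with 0.0702% called higher. Groups of 2 did not overlap for 7 of the 8 genes, all but Boc, 3 of them lower and 4 higher in Arl13b-null. That is true of 47.5% of all genes tested, 18.1% lower and 29.3% higher. These libraries were chosen with their values known, so the calls are conditional on that choice. Without wild-type 2 both calls ended (adjusted p = 0.0577 for Gas1 and 0.135 for Cdon), without wild-type 3 the Cdon call ended (0.103), and without the mean-variance trend both ended, that of Gas1 just above the threshold and that of Cdon at 0.0627. Without Arl13b-null 1, which leaves Arl13b-null 3 alone, 5 of the 8 genes passed, among 725 of all genes, and Boc was then higher by 0.32 (limma adjusted p = 0.0348).

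**Figure D2:**
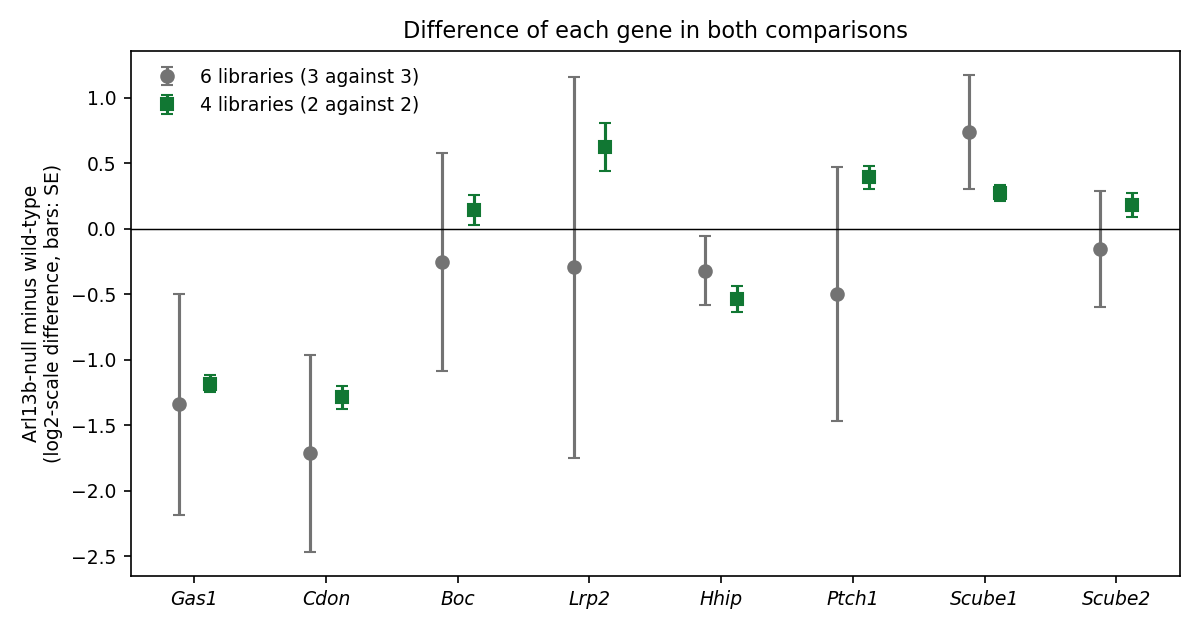
Difference between Arl13b-null and wild-type (log2 scale, bars SE from limma) of the 8 genes over 6 libraries (grey circles) and over wild-type 2 and 3 against Arl13b-null 1 and 3 (green squares). Gas1 and Cdon lie near −1.2 to −1.7 in both, and the bars of the 6-library comparison are several times longer.

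Averages of several marker lists of other cells and regions moved with the fall of Gas1 and Cdon, and their part in it was not tested. Within some lists, genes went both ways. Relative to wild-type 2 and 3, the 12 dorsal telencephalon genes differed on average by −0.98 in Arl13b-null 1 and −1.55 in Arl13b-null 3, with 2 of 12 called lower, and summed to 31400 and 38817 normalized counts in wild-type 2 and 3 and to 24611 and 22627 in Arl13b-null 1 and 3. The 15 genes of the cortical hem and choroid plexus, at the dorsal midline, differed by −0.74 and −0.59, with 3 of 15 called lower, and summed to 11058 and 11206 against 8024 and 9225. The 15 surface ectoderm genes differed by −1.25 and −2.09, with 0 of 15 called, and summed to 5314 and 2390 against 1021 and 404. Among them Krt14 was at 0 in Arl13b-null 3. The 15 genes of head mesenchyme and meninges differed by −0.41 and −0.39, with 6 above and 9 below 0 and 0 of 15 called. Wild-type 2 and 3 themselves lay at 0.33 and −0.33 for this list. Its genes summed to 81956 and 45774 against 37366 and 42630. Higher were the 14 genes of the diencephalon, by 0.51 and 0.75, with 2 of 14 called higher, and they summed to 23348 and 22768 against 33908 and 41770. The 10 red blood cell genes differed by 0.58 and 1.93, with 0 of 10 called, and summed to 61286 and 79189 against 111589 and 306383. No gene of these lists other than Krt14 was at 0 in the 4 libraries. Expressed relative to the mean of the radial glia list in the same library, the 4-library difference was −1.26 for Gas1 and −1.36 for Cdon. That list differed by only 0.080 and 0.069 in Arl13b-null 1 and 3, so this scaling could change little. It adjusts for none of the lists above.

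Within each library, the ratios of Cdon and of Gas1 to Boc separated the labels in all 6 libraries, including those that stand apart. On the log2 scale, Cdon minus Boc was 0.74, 0.44 and 0.48 across wild-type 1, 2 and 3, and −0.91, −0.79 and −1.02 across Arl13b-null 1, 2 and 3. These values are not corrected for length, so their sign does not say which transcript was more abundant, but the ratio was higher in each wild-type library than in any Arl13b-null library. The mean was 0.55 ± 0.16 for wild-type and −0.91 ± 0.11 for Arl13b-null libraries (SD, n = 3 each), a difference of −1.46 (exact two-sided permutation p = 0.1, the smallest that 3 against 3 can give, and 0.400 adjusted over 28 pairs). Gas1 minus Boc was 0.33, 0.72 and 0.89 across wild-type 1, 2 and 3, and −0.38, −0.29 and −0.67 across Arl13b-null 1, 2 and 3. The groups again do not overlap, with a difference of −1.09 (exact two-sided permutation p = 0.1, and 0.400 adjusted over 28 pairs). Gas1 minus Cdon was −0.40, 0.28 and 0.41 across wild-type 1, 2 and 3, and 0.54, 0.51 and 0.35 across Arl13b-null 1, 2 and 3, and these groups overlap. Outside wild-type 1, Gas1 minus Cdon lay between 0.28 and 0.54. With wild-type 1 included, its mean was 0.09 ± 0.44 for wild-type and 0.47 ± 0.097 for Arl13b-null libraries (SD, n = 3 each).

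**Figure D3:**
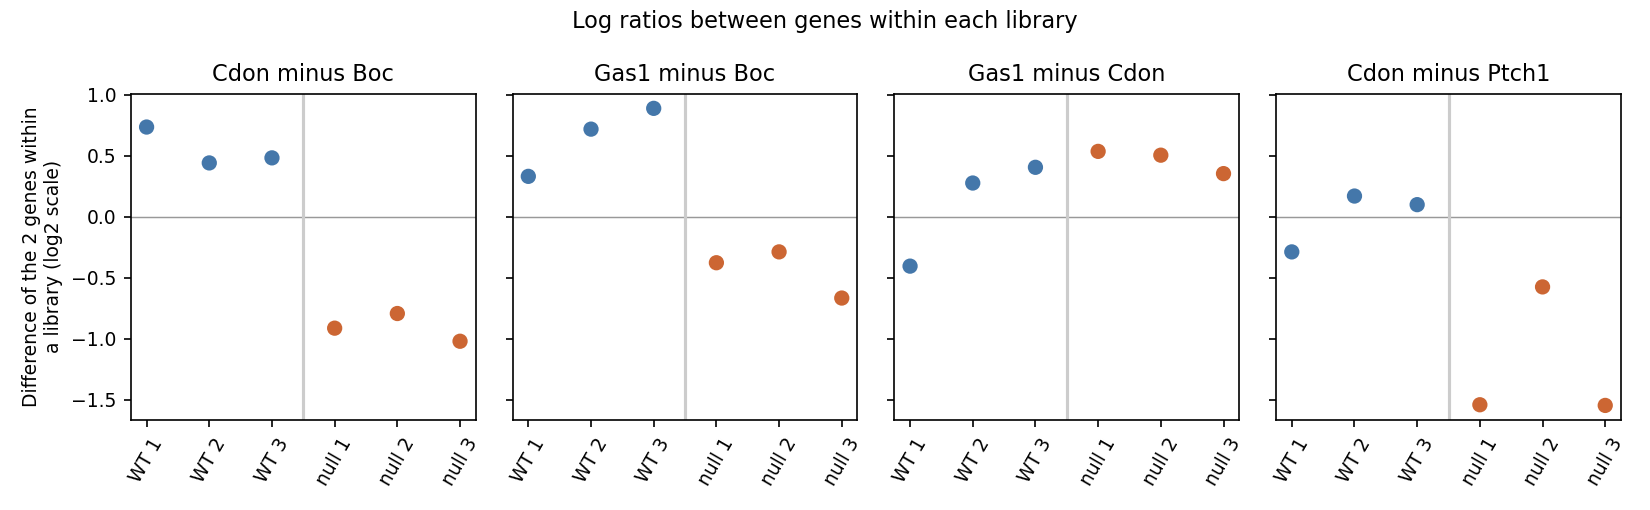
Difference of 2 genes within each library (log2 scale), with wild-type (WT) in blue and Arl13b-null (null) in orange. Cdon minus Boc is between 0.44 and 0.74 in wild-type and between −1.02 and −0.79 in Arl13b-null libraries, whereas Gas1 minus Cdon overlaps between the groups.

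Of the 28 pairs of the 8 genes, 7 had non-overlapping groups, 5 of which contain Cdon, against 8.31% of all pairs of genes tested. The pairs share genes and are not independent. Cdon itself was separated from 52.7% of all genes in this way, since its own groups do not overlap. Of all genes, 1.89% had a ratio to Boc that did not overlap between the groups, and Cdon and Gas1 are among them. The share for ratios to Gas1 was 9.43%, with Boc the 1 member among them. For ratios to Ptch1 the share was 1.44%, with Cdon but not Gas1 among them, and for ratios to Lrp2 it was 1.21%, with neither. When all genes were taken relative to Boc and tested with limma, neither passed: the difference was −1.46 ± 0.67 (SE) for Cdon and −1.09 ± 0.68 for Gas1 (limma, unadjusted p = 0.0577 and 0.145), and 0 of 14248 genes passed, with 19 at an unadjusted p under 0.05. The pairs were examined after the values were seen. Over the fits that leave out 1 library, Cdon minus Boc differed by between −1.52 and −1.37, and Gas1 minus Boc by between −1.25 and −0.97.

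The receptor Ptch1 moved the other way from Gas1 and Cdon in the 4 libraries, without passing the test. It had 2602, 4126 and 4397 normalized counts across wild-type 1, 2 and 3, and 5138, 482 and 6123 across Arl13b-null 1, 2 and 3. Arl13b-null 1 and 3 were above all wild-type libraries, and Arl13b-null 2 was below them. The difference was 0.39 ± 0.091 (SE; limma adjusted p = 0.171) in the 4 libraries, and 0.52 without Arl13b-null 1, where it passed (0.0107). Over all 6 it was −0.50 ± 0.97 (limma adjusted p = 0.990), and 0.62 without Arl13b-null 2. The median difference of the 15 radial glia genes was 0.12 in the 4 libraries, and relative to the mean of that list Ptch1 differed by 0.32.

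Hhip, a membrane protein that binds ligand and limits its range, had 155, 278 and 272 normalized counts across wild-type 1, 2 and 3, and 156, 174 and 185 across Arl13b-null 1, 2 and 3. Wild-type 1 was as low as the Arl13b-null libraries, and the groups overlap. Hhip and Scube1 were the 2 of the 8 genes that were not lowest in Arl13b-null 2. The difference was −0.32 ± 0.26 (SE; limma adjusted p = 0.990) over 6 libraries and −0.54 ± 0.099 (limma adjusted p = 0.122) over 4. Ptch1 and Hhip, both Hedgehog targets, thus had differences of opposite sign in the 4 libraries, and neither passed.

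Lrp2, also called megalin, had 160, 881 and 805 normalized counts across wild-type 1, 2 and 3, and 1084, 5.23 and 1634 across Arl13b-null 1, 2 and 3. It varied over the widest range of the 8 genes, and the low value of Arl13b-null 2 rests on few reads. In the 4 libraries both Arl13b-null values were above both wild-type values, with a difference of 0.62 ± 0.18 (SE; limma adjusted p = 0.238). Without Arl13b-null 1 it was 0.90 and passed (0.00506), and without Arl13b-null 3 it was 0.34 (0.234). Over all 6 libraries it was −0.29 ± 1.46 (limma adjusted p = 0.990), with a sign that changed with the library left out.

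The release factor Scube1 was higher in each Arl13b-null library than in any wild-type library. It had 2044, 2017 and 1898 normalized counts across wild-type 1, 2 and 3, and 2290, 6722 and 2460 across Arl13b-null 1, 2 and 3. The wild-type libraries were close together, wild-type 1 included, and Arl13b-null 2 was far above the rest. The SD of its level was 0.055 among wild-type and 0.85 among Arl13b-null libraries (n = 3 each), and the difference was 0.74 ± 0.44 (SE; limma adjusted p = 0.990, and exact two-sided permutation p = 0.1, the smallest possible). It was 0.27 ± 0.061 (limma adjusted p = 0.162) over the 4 libraries, and 0.25 over the 5 libraries without Arl13b-null 2. The 12 postmitotic neuron genes summed to between 165662 and 284228 normalized counts in wild-type and to 177372, 600047 and 178308 in Arl13b-null 1 to 3, with 0 of 12 called in either comparison and 0 of 12 at 0 in any library, and their part in the Scube1 values was not tested. Scube2, which acts with Disp1 in ligand release, had 85.7, 130 and 125 normalized counts across wild-type 1, 2 and 3, and 147, 27.5 and 159 across Arl13b-null 1, 2 and 3. It differed by −0.16 ± 0.44 (SE) over 6 libraries and by 0.18 ± 0.091 over 4 (limma adjusted p = 0.990 and 0.437).

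Per kilobase of annotated exon, Gas1 was the most abundant of the 8 transcripts in wild-type 2 and 3, with 1908 and 2118 normalized counts per kilobase. Boc followed with 765 and 754, Cdon with 620 and 629, Ptch1 with 529 and 564 and Scube1 with 366 and 345. Lrp2 had 53.2 and 48.6, Scube2 34.8 and 33.4 and Hhip 30.6 and 30.03. No neighbours in this order overlapped between these 2 libraries. In Arl13b-null 1 and 3 Boc (742 and 951) overlapped both Gas1 (854 and 892) and Ptch1 (658 and 785), Gas1 stayed above Ptch1, and Cdon (229 and 274) lay below Scube1 (416 and 447). Cdon thus ranked above Ptch1 and Scube1 in wild-type 2 and 3 and below both in Arl13b-null 1 and 3. In Arl13b-null 2 Scube1 was highest, with 1221 per kilobase, and Gas1 had 154. Wild-type 1 had 535 for Gas1, 371 for Scube1, 333 for Ptch1, 282 for Cdon and 280 for Boc.

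Among 3 lists of other Hedgehog pathway genes, 1 gene was called in the 4 libraries. Of 19 other genes that bind or release Hedgehog, 0 were called, 12 lay above and 7 below 0, and the median difference was 0.014, against 0.023 over all genes tested. Below 0, the smallest p belonged to the glypican genes Gpc4 (−0.80 ± 0.13, SE) and Gpc1 (−0.67 ± 0.15), which encode heparan sulfate proteoglycans of the cell surface. Above 0 were Hs6st1, a heparan sulfate sulfotransferase (0.44 ± 0.080), Scube3 (0.20 ± 0.091) and Disp2 (0.14 ± 0.063). The limma adjusted p of these 5 lay between 0.0998 for Gpc4 and 0.402 for Scube3. Gpc4 had 1752 and 1801 normalized counts in wild-type 2 and 3 and 1147 and 855 in Arl13b-null 1 and 3, and passed without Arl13b-null 1 (0.00196) or Arl13b-null 3 (0.0342). Without Arl13b-null 1, Hs6st1 and Gpc1 also passed (0.00592 and 0.00538).

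Of 24 ligand and transduction genes, 0 were called in the 4 libraries, 11 lay above and 13 below 0, and differences spanned −0.17 to 0.23. The ligand Shh differed by 0.23 ± 0.15 (SE), Smo by −0.024 ± 0.044, Sufu, the inhibitor of Gli proteins, by −0.042 ± 0.046, Gli1 by −0.12 ± 0.081, Gli2 by 0.16 ± 0.062 and Gli3 by −0.17 ± 0.081. Of 17 other Hedgehog target genes, 1 was called, Fgf15, which rose by 1.13 ± 0.051 (limma adjusted p = 0.00412), with 8 above and 9 below 0 and a median of −0.028. Without wild-type 2 the Fgf15 call ended (0.0791). Over all 6 libraries Fgf15 differed by −0.096 ± 1.63, with 6.56 normalized counts in Arl13b-null 2, and 1 of the 17 targets lay above and 16 below 0, with a median of −0.68. Sfrp1, a secreted Wnt inhibitor, differed by −0.99 ± 0.17, Foxa2, a floor plate transcription factor, by −0.60 ± 0.14, Cdk6 by 0.42 ± 0.075 and Ccnd1, a cyclin of the G1 phase, by 0.35 ± 0.067. The limma adjusted p of these 4 lay between 0.110 and 0.181, and Sfrp1 passed without Arl13b-null 1 (0.00230) or Arl13b-null 3 (0.0460). Over all 6 libraries 0 genes of the 3 lists passed, and 1 of the 19 binding and release genes, Hs6st1, had an unadjusted p under 0.05.

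**Figure D4:**
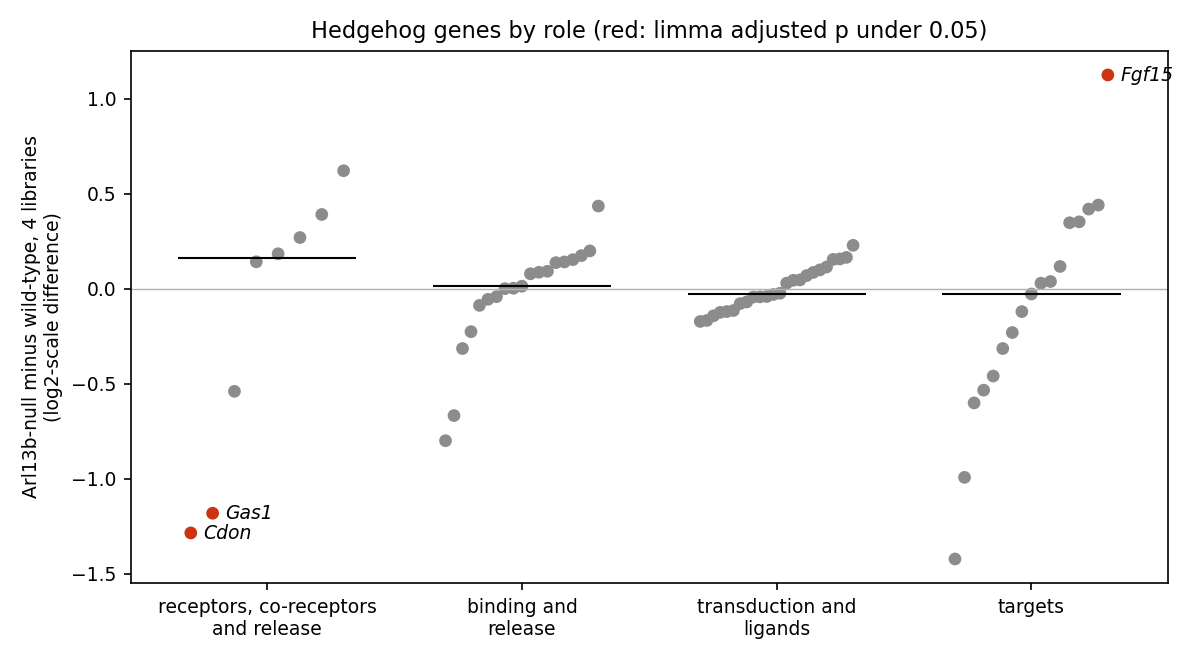
Difference between Arl13b-null 1 and 3 and wild-type 2 and 3 (log2 scale) of each Hedgehog gene tested, by role, with the median of each group as a line. Gas1 and Cdon, with differences of −1.18 and −1.29, and Fgf15, with 1.13, are the genes past the limma threshold (red).

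The genes whose pattern over the 6 libraries correlated best with that of Gas1 were Lpar2 (Pearson r = 0.998), Ttyh1 (0.996) and Ror2 (0.995). For Cdon they were Kcna5 (0.996), Lmo2 (0.993) and Hey2 (0.989), and for Ptch1 Uhrf2 (0.9998), Lpar4 (0.9996) and Cd247 (0.9996). These values describe 6 libraries, 2 of which stand apart, and correlations without those 2 were not computed. Ror2, which encodes a Wnt5a receptor, had 252, 1029 and 1110 normalized counts across wild-type 1, 2 and 3, and 495, 82.5 and 439 across Arl13b-null 1, 2 and 3. Hey2, a Notch target, had 177, 272 and 235 across wild-type 1, 2 and 3, and 144, 53.7 and 186 across Arl13b-null 1, 2 and 3.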

How the data were processed

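For 6 libraries the authors deposited log2-scale values, namely normalized counts after variance stabilisation. The submitters' processing notes name the tools DESeq2, DESeq 1.16.1, Salmon 0.9.1, STAR 2.6.0 and CASAVA and the build mm9, without their roles. Which annotation and filters were applied is not given in the sources used here. The shared lowest value, 5.13, was taken as a count of 0, and the parametric transformation was inverted to normalized counts. For each library, the step that put the largest share of low inverted values within 0.05 of whole multiples was taken as 1 read. Among values below 30 reads, 69.5% to 76.9% came within 0.05 of whole reads, so no count test was run, and depths are estimates. These shares include values that were used to choose the step.

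Genes with a mean at least 1 above the lowest value (14249) were tested with limma 3.58.1 in R 4.3.3, with a mean-variance trend, two-sided, and Benjamini-Hochberg adjustment at 0.05 over all of them. Differences on this scale understate changes of genes with few reads. Exact permutation tests used scipy 1.17.1, and figures matplotlib 3.10.9. Exon lengths are unions over the GENCODE M21 basic annotation of GRCm38. The members, the lists and the smaller comparison of 4 libraries were chosen with earlier results of these data known. Besides the members, the rule named Shh, Smo, Gli1 to Gli3, Sufu, the 3 genes with the smallest p per direction of each Hedgehog list in the 4 libraries, and 3 genes most like Gas1, Cdon and Ptch1. A gene that the rule also names is not reported here. Gene lists for dividing cells, endothelium and microglia were also drawn up: in the 4 libraries 0 of 12, 0 of 12 and 0 of 8 genes were called, and of 6 sex-linked genes all 6.

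The fits were tested on simulated data. Of 14249 genes, 50 each were changed by 0.5, 1, 2 and 4 log2 units, and the recovery at 1 and 2 units is given. From 6 libraries, 4% and 42% of the changed genes were recovered, and from 4 libraries 66% and 96%. Unchanged genes called numbered 2 and 11. The simulated noise was drawn for each gene separately. It lacks the deviations that many genes share in wild-type 1 and Arl13b-null 2, and the choice of the 4 libraries. These shares and counts therefore do not give the power or the false calls in the real libraries. Alternatives were no filter, inverted counts with a pseudocount of 1, centring, no trend, robust moderation, a replicate block, scaling to the radial glia list and leaving out each library.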

Additional observations from a re-analysis of the deposited data

How the results depend on the processing

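In the 6-library comparison the number of genes called was 0, and 3 without the filter. Leaving out 1 library at a time gave between 0 and 4, the 4 without wild-type 1, and no member was called under any alternative run. Scaling to the radial glia list gave positive differences for Boc (0.68), Lrp2 (0.64), Hhip (0.61), Ptch1 (0.43) and Scube2 (0.78). Under that scaling the median difference over all genes tested was 0.93, above each of these values. Leaving out Arl13b-null 2 did so for Boc (0.61), Lrp2 (1.30), Ptch1 (0.62) and Scube2 (0.31), and Lrp2 was also positive without wild-type 2 (0.072) or wild-type 3 (0.011). Fgf15 was positive without wild-type 2 (0.20), wild-type 3 (0.22) or Arl13b-null 2 (1.74), and spanned −1.02 to 1.74 over the fits without 1 library. Gas1, Cdon and Scube1 kept their sign in every alternative run, with ranges of −1.96 to −0.41, −2.18 to −0.78 and 0.25 to 1.67. Over the fits without 1 library, Boc spanned −0.77 to 0.61, Lrp2 −1.23 to 1.30, Ptch1 −1.12 to 0.62 and Scube2 −0.41 to 0.31. With the replicate number as a block, 0 genes and 0 members were called. Deviations of same-numbered libraries from their group means correlated at −0.71, −0.71 and 0.62. These values follow the library that stands apart in each group, so they cannot show whether the numbers pair the samples.

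In the 4-library comparison 36 genes were called, against 1 without the filter, 7 without the trend, 98 with robust moderation and 6 to 725 without 1 library. The 2 calls among the members became 0 without the filter (limma adjusted p = 0.168 for Gas1 and 0.265 for Cdon) and 0 without the trend, and between 0 and 5 without 1 library. The 1 call among the other Hedgehog genes became 0 without the filter, and between 0 and 6 without 1 library. Boc was −0.034 without Arl13b-null 3 and 0.32 without Arl13b-null 1. Gas1 lay between −1.26 and −1.11 and Cdon between −1.41 and −1.16 in every alternative run. A fit without 1 of these libraries sets 1 library against 2 and assumes that the lone one varies like the others. Only replicate 3 is shared by both groups there, so no replicate block could be fitted. Depth limits Lrp2 in Arl13b-null 2 most.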
